A study of Mus musculus with 6 samples.

Results

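The genes described here are the collagen hydroxylases and crosslinking enzymes, 10 genes taken by symbol from the 32493 genes of the count table. They are the alpha subunits of prolyl 4-hydroxylase *P4ha1*, *P4ha2* and *P4ha3*, the lysyl hydroxylases *Plod1*, *Plod2* and *Plod3*, the collagen chaperone *Serpinh1*, and the lysyl oxidases *Lox*, *Loxl1* and *Loxl2*. All 10 were found in the table, and 9 of them had enough counts to be tested, *Lox* being the exception. RNA-seq was run on neural stem cells (NSCs) of mouse embryos taken at embryonic stage E14.5 and passaged for 3 generations in culture. The cko NSCs were miR-151 fl/fl with Emx1-IRES-Cre, and the ctrl NSCs were miR-151 fl/fl littermates without Cre, which the sample labels call wildtype. Both genotypes therefore carried the floxed miR-151 alleles, on a C57BL/6J background. The Emx1 driver expresses Cre in the dorsal telencephalon, and a culture can also hold cells that never expressed it. The mature miRNA is not analysed here, so the library labels were not checked against the deleted gene.

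Of 6 deposited columns, 5 held counts of their own, namely ctrl 1, ctrl 3, cko 1, cko 2 and cko 3. The column of ctrl 2 was the rounded-up mean of the other ctrl columns in all 32493 genes, and it entered no mean, no n and no main test. The 5 libraries held 17883796 to 23335736 counts, so that 3 counts correspond to 0.129 to 0.168 CPM (counts per 1000000 counts). The NSC markers stood at a summed 7335 to 8362 CPM in ctrl and 8603 to 9367 CPM in cko. Oligodendrocyte markers summed to 2755 to 3377 CPM in ctrl and 3224 to 3508 CPM in cko. Astrocyte markers were at 2001 to 3037 and 833 to 1533 CPM, and neuron markers at 1133 to 1262 and 1274 to 1305 CPM. Pericyte and smooth muscle markers were at 196 to 392 and 279 to 386 CPM, and endothelial markers at 4.19 to 4.96 and 5.02 to 6.71 CPM. The pericyte and smooth muscle markers include *Cspg4*, also counted among the oligodendrocyte markers, and *Pdgfrb*, also a fibroblast marker. Their sum is therefore not specific to pericytes and smooth muscle. All 7 microglial markers were too low to be tested. Nothing in the labels says that the libraries of a genotype came from separate embryos or cultures, so the p-values measure the spread between these libraries only. In bulk RNA, fewer cells of a type and less RNA per cell cannot be told apart.

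Collagen is modified inside and outside the cell. In the endoplasmic reticulum, prolyl 4-hydroxylases turn prolines of the chain into 4-hydroxyproline, which keeps the triple helix stable at body temperature, and lysyl hydroxylases modify lysines that later carry sugars and crosslinks. The chaperone HSP47, the product of *Serpinh1*, binds the folded helix until it is exported. Outside the cell, lysyl oxidases convert lysines and hydroxylysines of collagen and elastin into aldehydes that react to form crosslinks. The hydroxylases need oxygen, iron, 2-oxoglutarate and ascorbate, and *P4ha1*, *P4ha2*, *Plod2*, *Lox* and *Loxl2* are known to be induced by hypoxia-inducible factor (HIF) in many cell types. In the developing brain, collagens are abundant mainly in the meninges and the vascular basement membranes.

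In these NSCs, the prolyl hydroxylases *P4ha1* and *P4ha2*, the lysyl hydroxylase *Plod3*, the chaperone *Serpinh1* and the lysyl oxidases *Loxl1* and *Loxl2* were lower in cko than in ctrl. These were 6 of the 9 tested genes at an edgeR adjusted p under 0.05, and 0 of the 9 were called higher. All 9 log2 fold changes were negative, so that 0 were higher at an unadjusted p under 0.05 or with DESeq2 as well. Over all 16710 genes tested, 8.57% were called lower and 7.86% higher. At the threshold that the study used, a log2 fold change beyond 0.9 with an unadjusted p under 0.01, 5 of the 9 were lower, *Plod3* being left out, against 4.17% of all tested genes. In the same 6 genes, all 3 cko libraries lay below both ctrl libraries, which held for 24.3% of all tested genes. *Loxl1* passed the filter on low counts only through the ctrl libraries, and without it 5 of 8 genes were lower, 0 higher. The median log2 fold change was -1.79 over the 9 genes, -1.27 over these 8 and -0.00 over all tested genes. The ctrl libraries, however, differed strongly from each other in most of the 10 genes, and every value is therefore given for ctrl 1 and ctrl 3 apart. Without cko 1, 2 or 3 the number of the 9 called lower was 3, 2 and 2. Over all tested genes it fell from 1432 to 907, 416 and 457. A fit without ctrl 1 or ctrl 3 leaves 1 ctrl library, which is then assumed to vary like the cko libraries. For those fits only log2 fold changes are given for each gene.

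**Figure D1:**
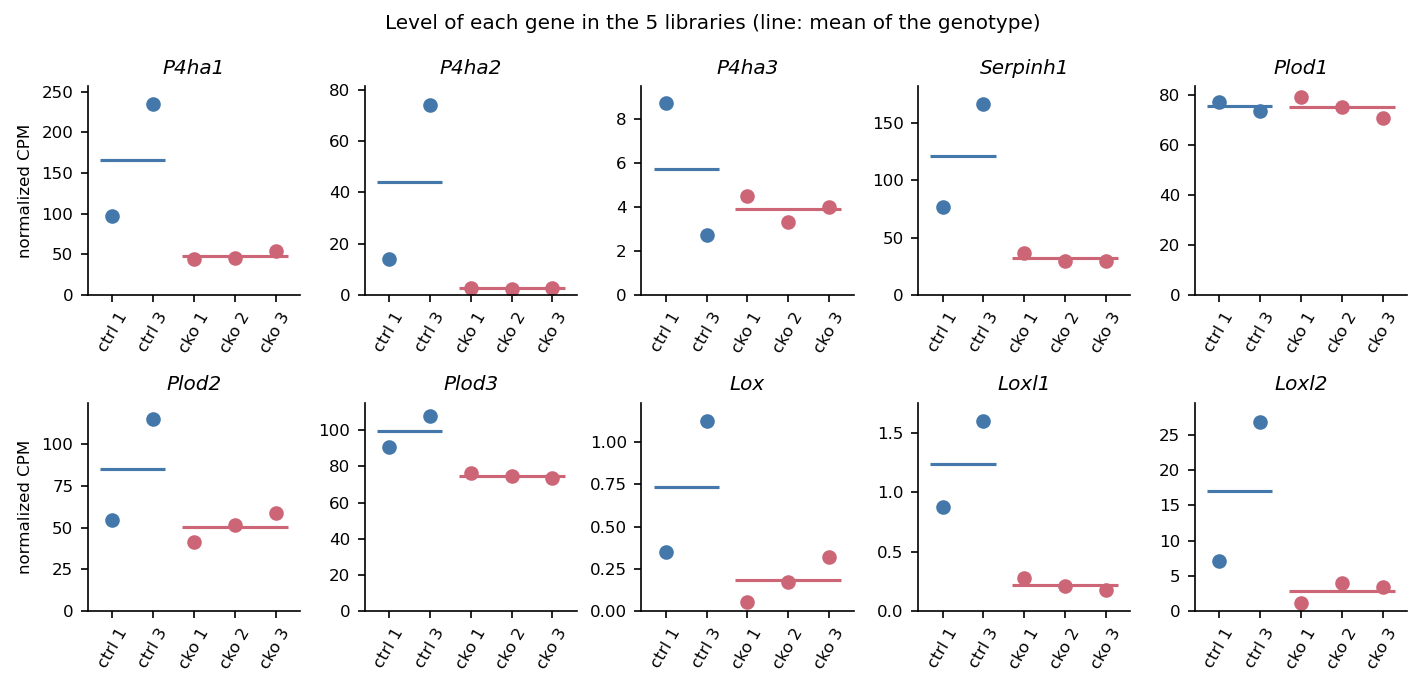
Level of each of the 10 genes in ctrl 1, ctrl 3, cko 1, cko 2 and cko 3, as TMM-normalized CPM on a linear axis from 0 that is scaled for each gene. Each point is 1 library and each line the mean of the genotype. In *P4ha1*, *P4ha2*, *Serpinh1* and *Loxl2* the ctrl 3 point stands far above the ctrl 1 point, and the cko points lie together below both.

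The prolyl 4-hydroxylase alpha subunits carry the catalytic site of the enzyme, which is completed by protein disulfide isomerase, the product of *P4hb*. The widely expressed subunit *P4ha1* (ENSMUSG00000019916, GRCm38 chromosome 10, 59323296 to 59373304, plus strand) stood at 96.7 CPM in ctrl 1 and 235 CPM in ctrl 3, and at 44.0, 45.8 and 53.7 CPM in cko 1, 2 and 3. The genotypes did not overlap, and ctrl 3 was 2.43 times ctrl 1. *P4ha1* fell by 1.79 on the log2 scale (SE 0.32, edgeR adjusted p = 0.0111, 95% interval of the log2 fold change -2.53 to -1.05), from 166 ± 98 CPM (SD, n = 2) to 47.8 ± 5.14 CPM (SD, n = 3). Against ctrl 1 alone the difference was -1.02, and against ctrl 3 alone it was -2.30. The call was lost without cko 1, cko 2 or cko 3, at edgeR adjusted p-values of 0.0544, 0.0629 and 0.0518 with log2 fold changes of -1.75, -1.77 and -1.90. The log2 fold change was -2.31 without ctrl 1 and -1.01 without ctrl 3.

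The second alpha subunit, *P4ha2* (ENSMUSG00000018906, chromosome 11, 54100095 to 54131665, plus strand), showed the largest difference of the 9. It was at 14.1 CPM in ctrl 1, at 74.0 CPM in ctrl 3, and at 2.74, 2.44 and 2.85 CPM in the cko libraries. Here the cko libraries lay within 1.17 times of each other, whereas the ctrl libraries were 5.26-fold apart. *P4ha2* fell by 4.03 on the log2 scale (SE 0.63, edgeR adjusted p = 0.00735), and the mean over ctrl was 16.4 times the mean over cko. The size of this change depended on ctrl 3, since without that library the log2 fold change was -2.39, and without ctrl 1 it was -4.80. The call held without each cko library in turn, with the highest edgeR adjusted p, 0.0498, without cko 2.

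The third alpha subunit, *P4ha3* (ENSMUSG00000051048, chromosome 7, 100285520 to 100319699, plus strand), went another way. It was at 8.74 CPM in ctrl 1 and 2.72 CPM in ctrl 3, the highest and the lowest of the 5 libraries, with 4.48, 3.30 and 4.0 CPM in cko. The genotypes overlapped, and the log2 fold change was -0.56 (SE 0.44, edgeR adjusted p = 0.414, 95% interval -1.58 to 0.46). Its sign rested on the ctrl library used. Without ctrl 1 the log2 fold change was 0.51, and without ctrl 3 it was -1.16.

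Levels of different genes were compared as CPM per kilobase of annotated exon. On that scale the 3 alpha subunits summed to 28.5 in ctrl 1, 69.9 in ctrl 3 and 12.6 to 14.8 in cko. *P4ha1* made up 82.3% and 81.8% of this sum in ctrl 1 and ctrl 3 and 85.1% to 88.5% in cko. The share of *P4ha2* was 7.90% and 17.0% in ctrl and 3.09% to 3.50% in cko, and the genotypes did not overlap. This share depends on the length taken for *P4ha2*, and with the longest coding transcript it was 18.6% and 35.9% in ctrl and 7.86% to 8.77% in cko. The common beta subunit *P4hb* was at 301 and 352 CPM in ctrl and 268 to 272 CPM in cko, with a log2 fold change of -0.27 (SE 0.09, edgeR adjusted p = 0.0698). Per kilobase, *P4hb* was 3.69 and 1.76 times the summed alpha subunits in ctrl and 6.43 to 7.52 times that sum in cko.

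Of the lysyl hydroxylases, 1 of 3 was called lower. *Plod1* (ENSMUSG00000019055, chromosome 4, 147909753 to 147936767, minus strand), which modifies lysines in the helical part of the chain, was at 77.5 and 73.6 CPM in ctrl and 79.3, 75.3 and 71.0 CPM in cko. Its range over the cko libraries held both ctrl values, and the log2 fold change of -0.01 had a 95% interval of -0.20 to 0.18 (SE 0.08, edgeR adjusted p = 0.961). *Plod3* (ENSMUSG00000004846, chromosome 5, 136987019 to 136996648, plus strand), which also transfers sugars to hydroxylysine, was at 90.8 and 108 CPM in ctrl and 76.1, 74.8 and 73.3 CPM in cko. *Plod3* fell by 0.41 on the log2 scale (SE 0.09, edgeR adjusted p = 0.0241), the smallest change among the 6 genes called. This call was lost without cko 1, cko 2 or cko 3 (edgeR adjusted p = 0.0639, 0.104 and 0.109), and its log2 fold change without those libraries stayed between -0.43 and -0.41.

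*Plod2* (ENSMUSG00000032374, chromosome 9, 92542223 to 92608428, plus strand) hydroxylates lysines of the telopeptides, the short ends at which crosslinks form. Its level was 54.4 CPM in ctrl 1 and 115 CPM in ctrl 3, and 41.5, 51.4 and 58.5 CPM in cko. Ctrl 1 lay inside the range of the cko libraries, and ctrl 3 was 2.11 times ctrl 1. The log2 fold change of -0.74 did not pass the threshold (SE 0.29, edgeR adjusted p = 0.120, 95% interval -1.41 to -0.07). Set against ctrl 3 alone, with ctrl 1 left out, the value was -1.19, and without ctrl 3 it was -0.10. The 3 lysyl hydroxylases summed to 41.6 and 56.1 CPM per kilobase in ctrl and 36.3 to 37.6 in cko. Their shares of that sum overlapped between genotypes for each of the 3 genes except *Plod1*, with 19.4% and 27.5% in ctrl and 27.9% to 32.3% in cko.

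*Serpinh1* (ENSMUSG00000070436, chromosome 7, 99345376 to 99353239, minus strand) codes for the chaperone that binds collagen and few other proteins. It was at 76.1 CPM in ctrl 1, 166 CPM in ctrl 3, and 36.3, 29.8 and 29.9 CPM in cko 1, 2 and 3. The lower ctrl library was thus above the highest cko library, and ctrl 3 was 2.19 times ctrl 1. *Serpinh1* fell by 1.92 on the log2 scale (SE 0.29, edgeR adjusted p = 0.00632), the smallest adjusted p of the 9 genes, from 121 ± 63.8 CPM (SD, n = 2) to 32.0 ± 3.71 CPM (SD, n = 3). It kept its call without each cko library in turn, at edgeR adjusted p-values up to 0.0437. Its log2 fold change was -1.25 without ctrl 3 and -2.39 without ctrl 1.

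The lysyl oxidases were measured at low levels. *Loxl2* (ENSMUSG00000034205, chromosome 14, 69609068 to 69695834, plus strand), which crosslinks type IV collagen of basement membranes, had 164 and 503 counts in ctrl 1 and ctrl 3 and 21, 95 and 74 counts in cko. In CPM these were 7.16 and 26.8 against 1.18, 4.07 and 3.40, so that both genotypes varied more than 3-fold within themselves without overlapping. *Loxl2* fell by 2.53 on the log2 scale (SE 0.60, edgeR adjusted p = 0.0306). Its call was lost without cko 1, cko 2 or cko 3 (edgeR adjusted p = 0.0842, 0.0853 and 0.106), where the log2 fold change was -2.19, -2.87 and -2.67. Without ctrl 3 the log2 fold change was -1.28.

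*Loxl1* (ENSMUSG00000032334, chromosome 9, 58287738 to 58313186, minus strand), an oxidase tied to elastic fibres, had 20 and 30 counts in ctrl and 5, 5 and 4 counts in cko. These low counts correspond to 0.874 and 1.60 CPM in ctrl and 0.280, 0.214 and 0.184 CPM in cko, where every library was under the 0.460 CPM that the filter asks for. *Loxl1* was thus tested only because its ctrl level was high, and its call is no support for a difference of the group. *Loxl1* fell by 2.43 on the log2 scale (SE 0.49, edgeR adjusted p = 0.0175). The call was lost without cko 2 (log2 fold change -2.40, edgeR adjusted p = 0.0777) or cko 3 (-2.31, edgeR adjusted p = 0.0805). Without ctrl 3 the log2 fold change was -1.94. *Lox* (ENSMUSG00000024529), the founding enzyme of the family, had 8 and 21 counts in ctrl and 1, 4 and 7 counts in cko. *Lox* was removed by the filter on low counts. Without the filter its log2 fold change was -1.92 with an edgeR adjusted p of 0.0535. Without ctrl 1 it passed the filter, but only through ctrl 3, the library in which it was highest. Its log2 fold change there was -2.54.

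The lysyl oxidases and *Serpinh1* are most abundant in mesenchymal cells, and markers of such cells were counted beside them. Of 9 fibroblast and meningeal markers, 3 were tested, of which *Foxc1*, a transcription factor of the meninges, was lower in cko (log2 fold change -1.85, SE 0.21, edgeR adjusted p = 0.00253), and 0 were higher in edgeR or DESeq2, also at an unadjusted p under 0.05. Their summed level was 14 and 21.7 CPM in ctrl and 4.59 to 5.93 CPM in cko, and *Foxc1* alone made up 10.7 and 15.3 CPM of the ctrl sums. *Postn* was at 0 in 4 of the 5 libraries, *Lum* was at 0 in cko, and *Dcn*, *Twist1* and *Col1a2* were below 0.50 CPM in every library. *Col3a1*, also untested, had 1 count in ctrl 1, 42 counts in ctrl 3, and 1, 0 and 0 counts in cko 1, 2 and 3. Of 8 pericyte and smooth muscle markers 3 were tested and 0 called by edgeR, DESeq2 or an unadjusted p under 0.05. The part of these cells in the differences was not tested.

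**Figure D2:**
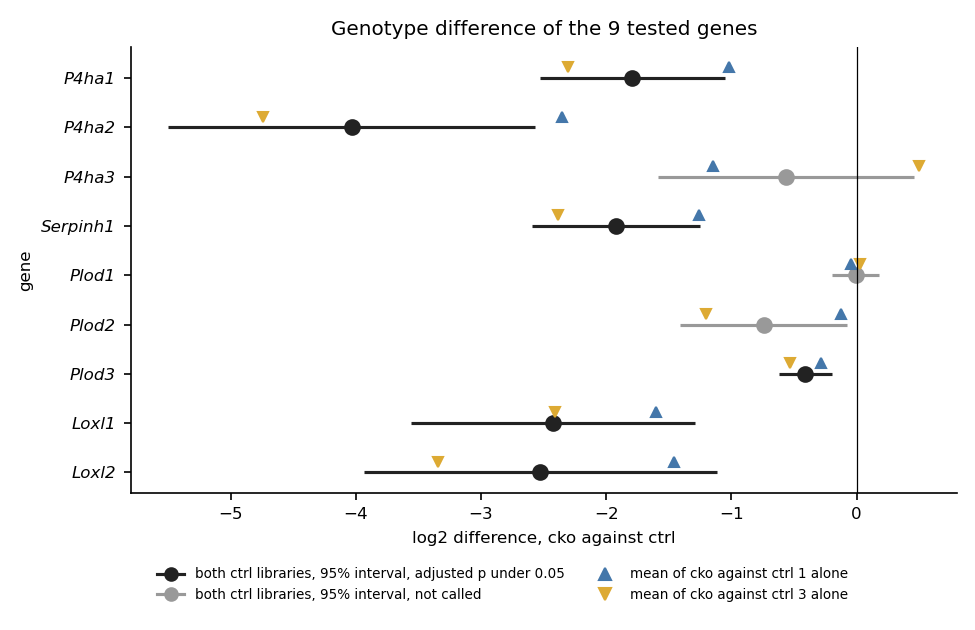
Log2 difference between cko and ctrl for the 9 tested genes. Circles with 95% intervals are the edgeR estimates from the 5 libraries, black where the adjusted p was under 0.05 and grey elsewhere, and triangles are the mean log2 CPM of cko (prior count of 2) minus that of ctrl 1 (pointing up) or ctrl 3 (pointing down). The triangles lie closest together in *Plod1* and *Plod3*, and for *P4ha3* they lie on opposite sides of 0, at -1.15 and 0.50.

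The gap between the ctrl libraries was itself large in this gene family. As a log2 ratio of ctrl 3 to ctrl 1, with a prior count of 2, it was 1.28 in *P4ha1*, 2.39 in *P4ha2*, 1.08 in *Plod2*, 1.89 in *Loxl2* and 1.13 in *Serpinh1*. These 5 of the 9 genes were more than 2-fold higher in ctrl 3, as were 3.57% of all tested genes. *P4ha3*, at -1.65, was 1 of the 9 and more than 2-fold lower, as were 4.45% of all tested genes. The gap was smaller in *Loxl1* (0.81), *Plod3* (0.25) and *Plod1* (-0.07), and over all tested genes the median size of the gap was 0.23.

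Among the cko libraries, most of these genes were spread much as other genes were. The log2 range over cko 1, 2 and 3 was 0.29 in *P4ha1*, 0.21 in *P4ha2*, 0.28 in *Serpinh1*, 0.16 in *Plod1* and 0.05 in *Plod3*, beside a median of 0.23 over all tested genes. In *P4ha3*, *Plod2* and *Loxl1* it was 0.43, 0.49 and 0.43. *Loxl2* was the exception, with a range of 1.71 that came from its low value in cko 1. In 3 of the 6 genes called lower, the difference of cko from ctrl 1 alone was smaller in size than the gap between the ctrl libraries. These were *P4ha1* (-1.02 beside a gap of 1.28), *P4ha2* (-2.35 beside 2.39) and *Loxl2* (-1.46 beside 1.89). *Serpinh1*, *Plod3* and *Loxl1* differed from ctrl 1 by -1.26, -0.28 and -1.60, beside gaps of 1.13, 0.25 and 0.81.

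Since several of these enzymes are HIF targets, 20 hypoxia-inducible genes were read in the same libraries. Of 19 tested, 9 were lower in cko at an edgeR adjusted p under 0.05, with a median log2 fold change of -1.12. With DESeq2 the number lower was 13, and 0 were higher with either tool, also at an unadjusted p under 0.05. *Vegfa*, the vascular growth factor, was at 182 CPM in ctrl 1, 855 CPM in ctrl 3 and 46.7, 62.5 and 89.8 CPM in cko (log2 fold change -2.96, edgeR adjusted p = 0.0150). The glucose transporter gene *Slc2a1* fell by 2.37 on the log2 scale (edgeR adjusted p = 0.0103), from 40.3 CPM in ctrl 1 and 129 CPM in ctrl 3 to 16.0 to 16.6 CPM in cko. The called genes with the smallest p were *Pdk1*, a kinase that keeps pyruvate out of the mitochondria (-2.62), the stress gene *Ndrg1* (-2.99), the mitophagy receptor *Bnip3* (-2.45), *Slc2a1*, *Vegfa* and the transcription factor gene *Bhlhe40* (-0.80).

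All 19 tested hypoxia-inducible genes were higher in ctrl 3 than in ctrl 1, 13 of them more than 2-fold, with a median log2 gap of 1.28. The 20 genes summed to 3230 CPM in ctrl 1, 7199 CPM in ctrl 3 and 2497 to 3012 CPM in cko. The order of the libraries in this sum, with ctrl 3 highest, ctrl 1 next and cko lowest, was also that of *P4ha1*, *P4ha2*, *Plod3*, *Serpinh1*, *Lox*, *Loxl1* and *Loxl2*. *Plod1*, *P4ha3* and *Plod2* were not in this order, *Plod2* with ctrl 1 at 54.4 CPM inside its cko range of 41.5 to 58.5 CPM. In the genes called lower, cko below both ctrl libraries was already stated, so only ctrl 3 above ctrl 1 is added here. Ctrl 3 was above ctrl 1 in 8256 of the 16710 tested genes. *Lox* was removed by the filter and *Loxl1* was tested only through ctrl, so neither adds to the likeness. Of all tested genes, 24.3% had every cko library below both ctrl libraries. The share with the full order was not counted, and the shared order is a description only. Without cko 1, 2 or 3 the number of hypoxia-inducible genes called lower was 4, 3 and 3, beside 5.5%, 2.55% and 2.8% of all tested genes. The oxygen supply of the cultures is not described by the labels for each library, and its part in the differences of the collagen enzymes was not tested.

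**Figure D3:**
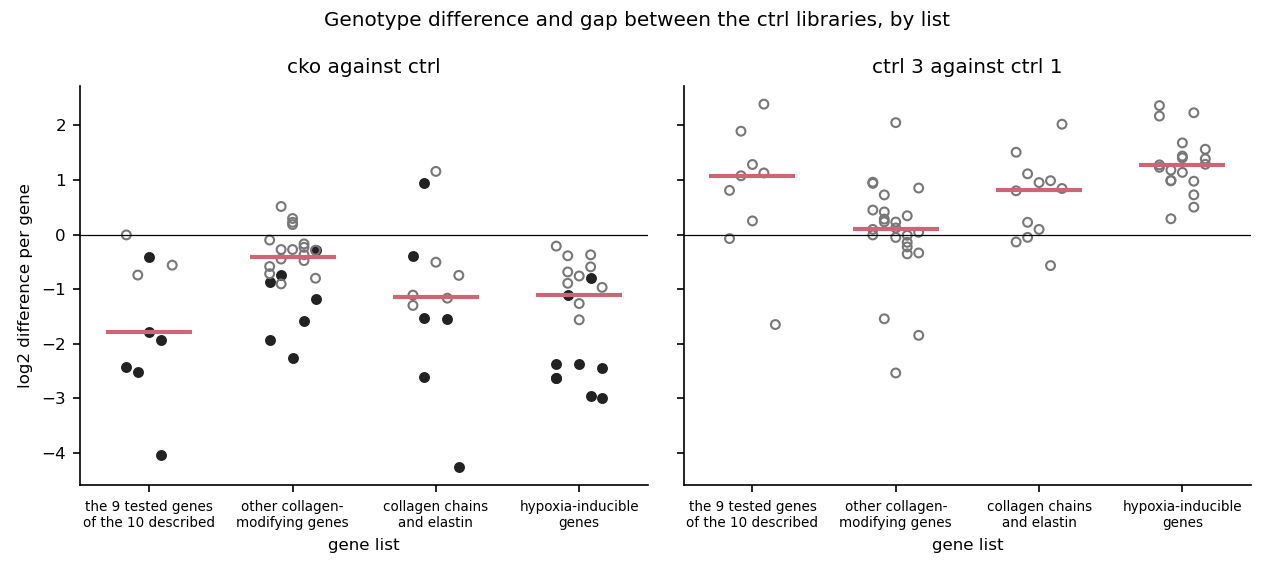
Log2 difference of cko against ctrl (left) and of ctrl 3 against ctrl 1 (right) for each tested gene of 4 lists. Filled points on the left have an edgeR adjusted p under 0.05, the right panel has no test, and red lines are medians. The 9 collagen enzymes and the hypoxia-inducible genes lie mostly below 0 on the left and above 0 on the right, with medians of -1.79 and -1.12 on the left and 1.08 and 1.28 on the right.

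HIF binds the core letters ACGTG or GCGTG, and promoters of these genes were searched for them. Those of *P4ha1*, *P4ha2* and *Serpinh1*, called lower in cko, and of *Plod1*, not called, are printed. Those of *Plod3*, also called lower, and *P4ha3*, not called, are not printed, and their matches are counted below. The part of these letters in the genotype difference was not tested. RefSeq promoter windows on GRCm38.p6, from 250 bases before to 30 bases after the annotated start, were read for 6 of the 10 genes. No window was read for *Plod2*, *Lox*, *Loxl1* or *Loxl2*. This is no result of a search, and it does not show that these genes, *Lox* in particular, have no annotated promoter. The sequences run 5′ to 3′ on the strand of the gene, with each match in capitals. A match on the opposite strand reads CACGT or CACGC.
P4ha1, chr10:59323046-59323325, plus strand: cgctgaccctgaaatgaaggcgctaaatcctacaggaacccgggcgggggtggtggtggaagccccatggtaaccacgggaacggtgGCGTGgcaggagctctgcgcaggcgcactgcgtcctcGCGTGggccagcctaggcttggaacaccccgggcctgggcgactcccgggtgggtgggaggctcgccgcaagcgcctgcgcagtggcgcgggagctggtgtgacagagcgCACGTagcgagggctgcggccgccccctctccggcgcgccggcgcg
P4ha2, chr11:54100674-54100953, plus strand: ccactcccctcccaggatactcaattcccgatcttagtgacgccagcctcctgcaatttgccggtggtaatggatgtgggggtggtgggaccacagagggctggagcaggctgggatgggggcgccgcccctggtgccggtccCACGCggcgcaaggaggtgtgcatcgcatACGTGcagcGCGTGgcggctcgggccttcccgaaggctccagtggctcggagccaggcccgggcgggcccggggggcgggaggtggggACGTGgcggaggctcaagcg
Serpinh1, chr7:99353210-99353489, minus strand: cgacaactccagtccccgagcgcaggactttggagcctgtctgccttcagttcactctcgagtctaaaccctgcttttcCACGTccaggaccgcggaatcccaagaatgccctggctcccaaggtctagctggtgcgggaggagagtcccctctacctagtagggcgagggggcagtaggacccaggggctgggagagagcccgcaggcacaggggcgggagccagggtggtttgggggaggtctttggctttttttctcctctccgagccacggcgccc
Plod1, chr4:147936747-147937026, minus strand: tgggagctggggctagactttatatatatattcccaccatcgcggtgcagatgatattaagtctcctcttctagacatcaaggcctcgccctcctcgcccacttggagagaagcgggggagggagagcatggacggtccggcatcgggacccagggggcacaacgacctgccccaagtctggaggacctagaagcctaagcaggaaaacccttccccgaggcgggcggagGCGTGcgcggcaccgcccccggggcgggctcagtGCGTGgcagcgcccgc

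Counted on both strands, these core letters occurred 3 times in the *P4ha1* window, 4 times in *P4ha2*, 1 time in *Serpinh1*, 2 times in *Plod1*, 4 times in *Plod3* and 0 times in *P4ha3*. In *P4ha2* an ACGTG and a GCGTG lie close together, with first bases at -78 and -69 from the start, and further matches begin at -107 and 11. In *P4ha1* the matches begin at -163, -126 and -16. Of all 32851 windows of this length, 41.8% held at least 1 match, 18.5% an ACGTG and 30.8% a GCGTG, and 5.84% held 3 or more matches. *Plod3*, with 4 matches, had a gap between the ctrl libraries of 0.25 on the log2 scale, and *Serpinh1*, with 1, had a gap of 1.13. A match of 5 letters is a description of the sequence and does not show binding.

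Per kilobase of exon, *Serpinh1* and *P4ha1* led the 10 genes in ctrl, at 49.6 ± 26.1 and 40.3 ± 23.8 CPM per kilobase (SD, n = 2), followed by *Plod3* (22 ± 2.68), *Plod2* (15.7 ± 7.93) and *Plod1* (11.2 ± 0.41). The ranges of neighbours in this order overlapped down to *P4ha3*, whereas *Loxl1* (0.375 ± 0.156) and *Lox* (0.154 ± 0.114) had ranges below that of the gene before them. In cko the order was led by *Plod3* at 16.5 ± 0.310 CPM per kilobase (SD, n = 3), above *Serpinh1* (13.1 ± 1.52) in every library. *P4ha1* (11.6 ± 1.25), *Plod1* (11.1 ± 0.62) and *Plod2* (9.36 ± 1.58) followed, each overlapping the gene before it. A wide step then led down to *P4ha3* (1.25 ± 0.189), *Loxl2* (0.533 ± 0.281) and *P4ha2* (0.429 ± 0.0337), the last of which had stood above *Loxl2* and *P4ha3* in the ctrl mean, though below *P4ha3* in ctrl 1. Taking the longest coding transcript as the length raised *Plod1* to 23.3 in ctrl and 23.2 in cko, next to *Plod3* at 22.8 in cko.

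**Figure D4:**
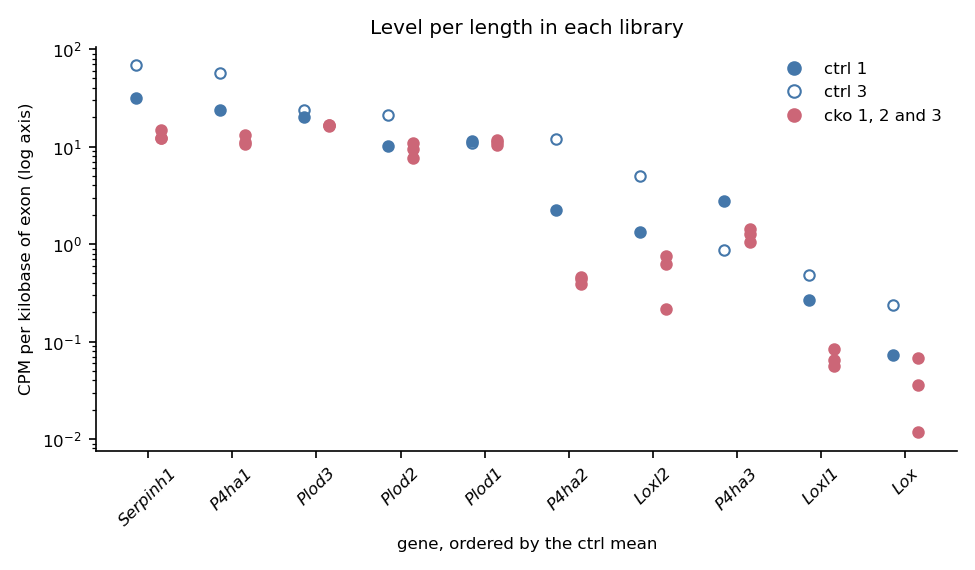
CPM per kilobase of exon in each library for the 10 genes, ordered by the ctrl mean, on a log axis. Filled blue points are ctrl 1, open blue points ctrl 3 and red points the 3 cko libraries. *P4ha2* lies at 2.25 in ctrl 1, 11.9 in ctrl 3 and 0.392 to 0.457 in cko, below *P4ha3* in ctrl 1 and in all 3 cko libraries and above it in ctrl 3.

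Collagen modification needs further enzymes and partners, and 24 of these were read for comparison. All 24 were tested, 7 were lower in cko and 0 higher in edgeR, with a median log2 fold change of -0.41 and a median ctrl gap of 0.11. DESeq2 called 9 lower and 0 higher, and 2 were higher at an unadjusted p under 0.05 in either tool. *Adamts14*, which removes the N-terminal propeptide of procollagen, fell by 1.94 on the log2 scale (edgeR adjusted p = 0.00825), from 10.3 and 20.1 CPM in ctrl to 2.91 to 4.54 CPM in cko. Members of the prolyl 3-hydroxylase family and of the peptidyl-prolyl isomerases that act on procollagen were among the others called, *P3h3* (-0.88), *P3h4* (-0.73), *Fkbp10* (-1.58) and *Fkbp14* (-1.18). *Ero1a*, which reoxidizes protein disulfide isomerase and is itself induced by hypoxia, fell by 2.26 on the log2 scale (edgeR adjusted p = 0.0219), and its ctrl libraries, at 68.7 and 284 CPM, were 2.05 log2 units apart.

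The remaining lysyl oxidases did not pass the threshold, and neither did *P4hb*. *Loxl3* was at 11.3 and 11.2 CPM in ctrl and 8.95, 6.94 and 6.62 CPM in cko (log2 fold change -0.59, edgeR adjusted p = 0.0630). *Loxl4* was at 0.349 and 0.640 CPM in ctrl and 0.560, 0.472 and 1.06 CPM in cko, with a log2 fold change of 0.51 (edgeR adjusted p = 0.564). In 3 of these partners, *Loxl3*, *P3h1* and *Colgalt1*, the ctrl libraries lay within 0.05 log2 units of each other. *Colgalt1*, a galactosyltransferase that acts on hydroxylysine, was called lower, with a log2 fold change of -0.29 (edgeR adjusted p = 0.0311). Without cko 1, 2 or 3 the number of the 24 genes called lower was 5, 2 and 2, where 5.5%, 2.55% and 2.8% of all tested genes were lower.

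The substrates of these enzymes are the collagen chains and elastin. Of 16 genes, 12 were tested, 5 were lower in cko and 1 higher in edgeR (8 and 2 in DESeq2), with a median log2 fold change of -1.14 and a median ctrl gap of 0.82. The fibrillar chain *Col11a2* was at 20.7 and 20.0 CPM in ctrl and 3.97, 2.79 and 3.26 CPM in cko (log2 fold change -2.62, SE 0.18, edgeR adjusted p = 0.000668), so that here the ctrl libraries were close to each other. *Col2a1*, the chain of cartilage collagen, fell by 4.25 on the log2 scale (edgeR adjusted p = 0.00583), with 9.61 CPM in ctrl 1 and 39.3 CPM in ctrl 3. *Col5a2* (-1.54), *Col4a2* (-1.52) and *Col11a1* (-0.40) were also called lower. Elastin, *Eln*, rose by 0.95 on the log2 scale (edgeR adjusted p = 0.00278), from 15.1 and 17.6 CPM to 31.3 to 31.9 CPM. The main fibrillar chains of connective tissue were rare, *Col1a1* at 0.504 to 2.77 CPM and *Col1a2* and *Col3a1* too low to be tested. Without cko 1, 2 or 3 the number of these genes called lower was 4, 3 and 3, where 5.5%, 2.55% and 2.8% of all tested genes were lower.

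For each tested gene, the gene with the most similar profile was sought among 32 candidates, the other tested members and the 24 collagen partners. Likeness was the root mean square distance of log2 CPM, centred on each gene's mean over the 5 libraries, so that 0 is an identical profile. *Serpinh1* and *Loxl1* were each other's nearest gene at 0.15, and *Serpinh1* was also nearest to *P4ha1* at 0.20. *Loxl1* had only 4 to 30 counts per library, where the prior count of 2 shrinks differences, which limits its likeness to any gene. *Plod3* lay nearest to *P4hb* at 0.07, *Plod1* to the isomerase gene *Ppib* at 0.08, and *Plod2* to the glycosyltransferase gene *Colgalt2* at 0.13. The steepest profiles had no close neighbour, since *P4ha2* was nearest to *Ero1a* at 0.80 and *Loxl2* to *Adamts14* at 0.54. *P4ha3* was nearest to the procollagen C-proteinase gene *Bmp1* at 0.44.

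Some values may hold reads of other genes, because the sources used here do not state whether counting used strand. Exons of *Plod3* overlap *Znhit1* on the opposite strand, those of *Loxl2* and *Lox* overlap antisense genes, and those of *Plod2* overlap the unclassified transcript *Gm38391*. No overlap with another gene's exons was annotated for *P4ha1*, *P4ha2*, *P4ha3*, *Plod1*, *Loxl1* or *Serpinh1*.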

How the data were processed

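RNA-seq counts of mouse NSCs were analysed for 2 ctrl and 3 cko libraries. The authors checked reads with FastQC and NGSQC, mapped them with HISAT2 to the mm10 genome, and deposited a table of raw gene counts that were not normalized. The labels name GRCm39 instead, and the counter, annotation and strand setting are not given in the sources used here. The labels name a column RNA kit and a SMARTER mRNA library kit. Of the other deposited values, the column of ctrl 2 equals the rounded-up mean of ctrl 1 and 3 in 32493 of 32493 genes and was used only in alternatives. GENCODE M21 on GRCm38 matched 31829 gene IDs, and the other 664 held 0.223% to 0.342% of the counts.

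Counts were filtered (filterByExpr, 16710 genes), scaled by TMM (factors 0.990 to 1.01) and tested with the edgeR 4.0.16 quasi-likelihood test in R 4.3.3, two-sided, with Benjamini-Hochberg adjustment over all tested genes and calls at an adjusted p under 0.05. Levels are CPM on TMM-scaled library sizes, with 3 counts as the floor, which covers counting error only. Log2 CPM used a prior count of 2, which shrinks differences of low genes. Alternatives were DESeq2 1.42.0 (on all genes with a count, with its own independent filtering), median-of-ratios factors, other filters, the replicate block, all 6 columns, the study's threshold, other lengths and leaving out each library. Steps were tested on simulated data. Figures were drawn with matplotlib 3.10.9.

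The members, lists and tests were chosen with earlier results of these data known. Named are all 10 members, up to 6 called genes with the smallest p from each of 3 lists (other collagen-modifying genes, collagen chains, hypoxia-inducible genes), *Vegfa*, *Slc2a1*, *P4hb*, *Loxl3*, *Loxl4* and each member's nearest gene. Other genes, among them *Foxc1*, *Colgalt1*, *P3h1* and marker genes, were named after their values were seen.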

Additional observations from a re-analysis of the deposited data

How the results depend on the processing

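Of 116 log2 fold changes of the tested genes under other settings, 94 kept their direction and their side of the threshold, 14 lost the call, 5 gained one and 3 changed sign. The changes of sign were *P4ha3* without ctrl 1 and *Plod1* without ctrl 1 or cko 3. Over the libraries left out in turn, the log2 fold change ranged from -1.16 to 0.51 for *P4ha3* and from -0.055 to 0.023 for *Plod1*. Leaving out each library in turn gave 2 to 8 of the members called lower (8 with *Lox*, which was tested only without ctrl 1), 416 to 2062 of all tested genes called lower and 317 to 1812 called higher. With 1 ctrl library left, that library is assumed to vary like the cko libraries. The list counts without each library, an alternative chosen after seeing the data, ranged from 2 to 9 for the other collagen-modifying genes, 3 to 11 for the collagen chains and elastin and 3 to 20 for the hypoxia-inducible genes. The number of members called lower was otherwise 5 to 7, and 0 were called higher under any setting.

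Over all tested genes, 1432 were called lower and 1314 higher. The number lower was 2237 without a filter, 2794 with all 6 columns in edgeR, 2539 with all 6 columns in DESeq2 and 696 at the study's threshold, and the number higher was 2865, 2605 and 399 in the last 3 of these. Counting the averaged column as a library lowers the spread of ctrl by construction. *Plod2* was called without the filter (edgeR adjusted p = 9.29e-11), where its log2 fold change stayed at -0.75 and its SE was 0.11 instead of 0.29. The SE also fell in *P4ha1*, *P4ha2*, *P4ha3*, *Loxl2* and *Serpinh1*, and rose in *Plod1*, *Plod3* and *Loxl1*. This call thus came with a smaller estimate of the spread rather than a larger difference, and the cause of that was not tested.

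The replicate numbers are shared by the genotypes in the labels, but nothing says what a number marks. Deviations from the genotype means correlated at 0.14 over genes for number 1 and 0.05 for number 3, so the samples were not treated as paired. With the replicate block, 6 of the members were called lower in the 5 libraries, *Plod2* being gained (-0.69, edgeR adjusted p = 0.0115) and *Plod3* lost (-0.41, edgeR adjusted p = 0.0588), and 1065 of all tested genes were lower and 918 higher. Among the 5 libraries, cko 2 shares its number with no ctrl library, so it adds nothing to the genotype effect in that fit. With the block and all 6 columns, 7 members, 2673 genes lower and 2675 genes higher were called.

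With the longest coding transcript as length, the level per kilobase was 19.7 and 1.20 in ctrl and cko for *P4ha2*, 23.3 and 23.2 for *Plod1*, 30.3 and 22.8 for *Plod3*, and in cko 1.66 for *P4ha3* and 13.8 for *Plod2*. *Lox* had no value in the edgeR settings that kept the filter, other than without ctrl 1, while DESeq2, which was run without that filter, gave -1.98 with 5 libraries (no adjusted p) and -1.95 with all 6 columns (DESeq2 adjusted p = 0.0550), and *Loxl1* had none when 10 counts were required in every library. At 4 to 30 counts per library, *Loxl1* is the called gene that depth limits most.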

Other observations

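Prolyl hydroxylases of the same fold that do not act on collagen were read in the same libraries. *Egln2*, an oxygen sensor that marks HIF for degradation, was at 76.9 and 75.3 CPM in ctrl and 87.9, 94.3 and 93.2 CPM in cko, higher by 0.27 on the log2 scale (edgeR adjusted p = 0.0464). *P4htm*, a transmembrane member of the endoplasmic reticulum, was at 12.5 to 15.9 CPM in ctrl and 11.7 to 15.8 CPM in cko (log2 fold change 0.01, edgeR adjusted p = 0.986). The sensors that HIF itself induces, *Egln1* and *Egln3*, had log2 fold changes of -0.89 and -0.76 that did not pass the threshold (edgeR adjusted p = 0.0719 and 0.107), and both were more than 2-fold higher in ctrl 3 than in ctrl 1. Of these 4 genes, edgeR called 1 higher and 0 lower, DESeq2 called 0 higher and 1 lower, and 2 were lower at an unadjusted p under 0.05.

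Markers of neural cell types also differed between genotypes. Of 9 NSC markers, 3 were higher in cko and 1 lower, of 7 tested neuron markers 2 were higher and 1 lower, and of 8 oligodendrocyte markers 2 were higher and 4 lower. Of 7 astrocyte markers 4 were lower and 0 higher in edgeR and in DESeq2, 0 were higher at an unadjusted p under 0.05, and the median of their log2 fold changes was -1.15. Their summed level was 3037 CPM in ctrl 1, 2001 CPM in ctrl 3 and 833 to 1533 CPM in cko. In that sum ctrl 3 lay below ctrl 1, unlike in *P4ha1* and *Serpinh1*. Of the 7 astrocyte markers, 3 went the other way, being higher in ctrl 3 than in ctrl 1. Of the endothelial markers, 2 were tested and 0 called by edgeR, DESeq2 or an unadjusted p under 0.05. The part of these cell types in the values of the collagen enzymes was not tested.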
